A study of Mus musculus with 4 samples.

Results

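The genes described here encode the proteins of the cytosolic ribosome. They are the 80 protein-coding genes of GENCODE release M21 on mm10 whose symbol is Rpl, Rps or Rplp followed by a number and at most the letters a, l, x, y or z, out of 21728 protein-coding genes on the autosomes and X. The 80 comprise 47 proteins of the large subunit, 3 proteins of the P stalk and 30 proteins of the small subunit, spread over 19 chromosomes, with 4 genes on X. Ribosomal proteins whose symbols do not follow this pattern, such as Rpsa and Fau, are outside the set and are given separately.

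The data are H3K27ac chromatin immunoprecipitation peaks from whole heart of female B6CASTF1/J mice, adults aged 2 months, a hybrid strain. There is 1 group, sequenced as 4 libraries. The labels give 2 biological replicates with 2 technical replicates each, each of them pooled from 2 heart biosamples. Both pools carry the same donor identifier, so differences between them may be technical.

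A ribosome has a large subunit, which forms peptide bonds, and a small subunit, which decodes the messenger RNA. Nearly every cell makes ribosomes and needs their proteins in balanced amounts. In vertebrates their transcripts typically start within a run of pyrimidines, the 5′ terminal oligopyrimidine tract, through which growth signals control their translation. A few have paralogs with restricted expression: Rpl3l is the paralog of striated muscle, and Rpl10l and Rpl39l are paralogs best known from male germ cells. H3K27ac is an acetylation of histone H3 found on nucleosomes beside active promoters and enhancers.

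Peaks came as 4 lists: replicated peaks from both biological replicates (63061 peaks, the list used unless another is named), a pseudoreplicated list from both (63494), and pseudoreplicated lists from biological replicate 1 (55831) and biological replicate 2 (61333). The replicate 2 list was the wider one, with a median peak of 930 bp against 664 bp in the replicate 1 list. Fold is the authors' own value for a peak, and its median was 4.55 in the replicated list. Of the heart markers, 10 of 10 cardiomyocyte, 5 of 5 endothelial and 5 of 5 fibroblast genes had a promoter peak, against 0 of 5 macrophage, 0 of 5 hepatocyte, 0 of 5 neuron, 1 of 6 testis germ cell and 2 of 6 skeletal muscle genes (Mylpf and Actn3). In the replicate 2 list the macrophage genes Cd68 (421 bp, fold 3.22) and Ptprc (267 bp, fold 3.42) had one. With 1 group and 1 list per biological replicate there is no test between samples, and the intervals below cover counting only.

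Acetylated promoters were close to universal among the ribosomal protein genes. A promoter peak, meaning a peak within 1 kb of any annotated transcription start, was present at 78 of 80 genes (97.5%, exact Clopper-Pearson 95% interval 91.3 to 99.7), against 57.3% of all coding genes. The same 78 genes had one in each of the 4 lists, where the shares of coding genes were 57.5% in the list pooled from both replicates, 55.7% in the replicate 1 list and 58.4% in the replicate 2 list. All 78 also kept one at a −log10 q of at least 5, against 55.2% of coding genes. Ribosomal protein genes have more annotated starts, a median of 6 against 3. When the 5′ end of the gene alone was counted, 76 of the 80 kept a peak, against 53.7% of coding genes; Rps2 and Rpl17 were the genes lost, Rpl17 being named here after its value was seen. In whole heart, fewer cells of a type and less acetylation per cell cannot be told apart.

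The 2 genes without a promoter peak were Rpl10l and Rpl39l, both paralogs of genes on X. Rpl10l is a gene of 1 exon on chromosome 12 (66283379 to 66284401, minus strand), and Rpl39l lies on chromosome 16 (10170226 to 10174911, plus strand). In all 4 lists, both windows of 50 kb on either side were empty of peaks, a state found in the replicated list at 20.9% of coding genes. No other coding gene lies within 50 kb of Rpl10l, and 1 does for Rpl39l. Their X-linked parents were acetylated. Rpl10 had a promoter peak of 1232 bp at fold 28.5 in the replicated list, 1202 bp at fold 24.6 in the replicate 1 list and 2557 bp at fold 32.9 in the replicate 2 list. In the replicated list this peak lay before the start, with its summit at -315 bp. A peak of 968 bp at fold 8.24 lay after the start, which was in the gap between them. Only in the replicate 2 list did the peak cover the start. Rpl39 had a peak of 1705 bp at fold 9.65 in the replicated list, 1400 bp at fold 10.3 in the replicate 1 list and 2142 bp at fold 11.8 in the replicate 2 list. Both parents were thus marked in every list and both paralogs in none.

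Rpl3l, which stands in for Rpl3 in ribosomes of heart and skeletal muscle, was the third paralog with restricted expression, and it was acetylated. Its start on chromosome 17 lay inside a peak of 2274 bp (24727283 to 24729556) at fold 12.4, with 1596 bp at fold 8.93 in the replicate 1 list and 2961 bp at fold 16.5 in the replicate 2 list. A further peak of 2329 bp at fold 13.4 lay inside the gene, and peaks covered 57.1% of its body. Rpl3, the parent, had a peak of 937 bp at fold 15.6 after its start and one of 576 bp at fold 10.3 before it, with the start itself in the gap between them. In the replicate 2 list these formed 1 peak of 2157 bp at fold 20.5. The window of Rpl3l holds 10 other coding genes, so acetylation there is not all its own. The other paralogs, Rps27l and Rpl36al, are broadly expressed, and both were marked. Rps27l had 1619 bp at fold 23.4, beside 1785 bp at fold 20.5 for Rps27. Rpl36al had 1880 bp at fold 19.5, and its promoter is shared with Mgat2. Its X-linked parent Rpl36a had peaks of 361 bp at fold 9.48 and 809 bp at fold 5.31 on either side of the start.

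The promoters of the 3 paralogs with restricted expression are shown because they divide into 1 with a peak and 2 without. They are RefSeq sequences on GRCm38.p6, from 250 bases before the start to 50 bases after it on the gene's strand, with each match to the motifs searched below in capitals. The promoter of Rpl3l is chr17:24727576-24727875 on the plus strand, that of Rpl10l is chr12:66284352-66284651 on the minus strand, and that of Rpl39l is chr16:10169978-10170277 on the plus strand.
Rpl3l: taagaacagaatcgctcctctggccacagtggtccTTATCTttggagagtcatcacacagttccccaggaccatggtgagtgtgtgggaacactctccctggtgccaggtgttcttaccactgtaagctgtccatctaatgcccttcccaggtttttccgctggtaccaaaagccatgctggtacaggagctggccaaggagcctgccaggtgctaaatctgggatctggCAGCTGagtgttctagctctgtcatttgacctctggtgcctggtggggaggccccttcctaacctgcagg
Rpl10l: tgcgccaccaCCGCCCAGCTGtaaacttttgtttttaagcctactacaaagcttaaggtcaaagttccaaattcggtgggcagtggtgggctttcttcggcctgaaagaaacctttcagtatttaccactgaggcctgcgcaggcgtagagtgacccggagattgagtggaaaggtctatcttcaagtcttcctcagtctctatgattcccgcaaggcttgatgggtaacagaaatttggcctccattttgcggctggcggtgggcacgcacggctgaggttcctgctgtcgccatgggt
Rpl39l: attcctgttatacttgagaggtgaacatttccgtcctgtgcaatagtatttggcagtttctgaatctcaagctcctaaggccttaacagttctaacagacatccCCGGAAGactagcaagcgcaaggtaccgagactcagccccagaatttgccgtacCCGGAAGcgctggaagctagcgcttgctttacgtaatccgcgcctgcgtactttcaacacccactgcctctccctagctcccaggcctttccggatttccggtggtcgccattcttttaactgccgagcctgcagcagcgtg

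In the acetylated Rpl3l promoter the capitals mark a GATA motif, read from the other strand, at position -215 and an E-box at position -20, counted from the start as 0. In Rpl10l an Sp1 box at -240 overlaps an E-box at -235. In Rpl39l the ETS motif occurs at -146 and -92. The ratio of observed to expected CpG was 0.0892 in Rpl3l, the lowest among the ribosomal protein promoters and at the 9.05th percentile of coding promoters. It was 0.643 in Rpl10l and 0.836 in Rpl39l, and that of Rpl39l stood at the 74.8th percentile. Among these promoters, the 1 with a peak was therefore the one poorest in CpG.

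From here on, width and fold are those of a gene's widest promoter peak unless another peak is named. Among the large subunit genes, 45 of 47 had a promoter peak, their widths having a median of 1357 bp and their folds one of 13.3. Rpl21, a protein of the large subunit, had the highest fold of all ribosomal protein genes. Its peak was 1613 bp at fold 42.0 in the replicated list, 1406 bp at fold 36.2 in the replicate 1 list and 1679 bp at fold 48.3 in the replicate 2 list. Rpl10, described above, and Rpl19, with 1937 bp at fold 27.3, were also among the 5 highest. All 3 had folds above 20 in both single-replicate lists. The lowest folds were those of Rpl12 (855 bp, fold 4.94), Rpl36a (fold 5.31) and Rpl6 (820 bp, fold 6.53). Rpl12 and Rpl36a each also had a narrower promoter peak of higher fold, 8.17 and 9.48. By the highest promoter fold of each gene, Rpl6 was the lowest in the replicated list. Rpl12 had a fold of 3.79 in the replicate 1 list, where it was the lowest of the set, and 12.9 over a single peak of 1551 bp in the replicate 2 list. Rpl6 had 6.06 in the replicate 1 list and 4.01 in the replicate 2 list, where it was the lowest. The low end of the order thus changed between replicates and the high end did not for Rpl21.

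Width among the large subunit genes ran from 623 bp at Rpl22 to 2853 bp at Rpl7, a protein of the large subunit whose peak was 2607 bp in the replicate 1 list and 3418 bp in the replicate 2 list. Rpl3l (2329 bp) and Rpl37 (2073 bp) followed. Rpl37 showed how far the lists can differ at 1 gene, with 835 bp in the replicate 1 list and 2152 bp in the replicate 2 list. The other narrow ones were Rpl23a (631 bp) and Rpl26 (709 bp), Rpl26 being known as a regulator of p53 translation besides its ribosomal role. Rpl26 had 688 bp in the replicate 1 list and 861 bp in the replicate 2 list, so it was narrow in both.

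The P stalk recruits the elongation factors, and its 3 genes Rplp0, Rplp1 and Rplp2 all had promoter peaks. Their peaks measured 788 bp at fold 10.6, 1542 bp at fold 17.4 and 1685 bp at fold 27.2, in that order. Rplp0 and Rplp2 had the most acetylated surroundings of all 80 genes in the replicated list, as described below.

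All 30 small subunit genes had a promoter peak, and the medians were 1371 bp in width and 17.2 in fold. Width was thus much the same in the large and small subunits. Rps26 had the highest fold of the small subunit, with 1159 bp at fold 35.0 in the replicated list, fold 28.2 in the replicate 1 list and fold 39.3 in the replicate 2 list. Rps10, whose promoter overlaps that of the read-through gene RPS10-NUDT3, and Rps4x had the lowest, 6.55 and 7.26. By the widest promoter peak of each gene, the narrowest of the whole set was Rps2, with 496 bp. Rps2 was narrow in both replicates (464 bp in the replicate 1 list and 586 bp in the replicate 2 list) and had a gap at its start in both, with 3 promoter peaks in the replicated list.

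The widest peak of the set, 4279 bp at Rps14, lay at an alternative start of that gene, with the summit at -26550 bp from the principal start. Rps14 shares a promoter window with Ndst1. At the principal start Rps14 had 1918 bp at fold 29.4. The widest promoter peak had its summit over 1 kb from the principal start at 4 genes, Rps14, Rpl3l, Rpl3 and Rpl18, the last named after its value was seen. This count was not made over coding genes, where the quartiles of the signed distance were -196 and 300 bp. The RefSeq promoter of Rpl18 (45717821 to 45718120) lies inside its widest peak (45717148 to 45719047), away from the principal start at 45715457.

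Across the 78 genes, width had a median of 1373.5 bp and a range of 496 to 4279 bp, against a median of 1436 bp at the 12450 coding genes with a promoter peak. Of the 78, 36 were wider than that median, where 50% of coding genes are by construction. Median fold was 13.5 (range 4.94 to 42.0), against 12.5 at coding genes, and 45 of 78 exceeded the coding median, again against 50%. The order of the fold medians depended on the replicate: it was 10.03 at ribosomal protein genes, against 10.26 at coding genes, in the replicate 1 list, and 19.1, against 15.7, in the replicate 2 list. All 78 exceeded the median of the whole replicated list, 4.55, as did 91.2% of coding genes with a promoter peak. Quartiles of width were 1006 and 1701 bp at ribosomal protein genes, against 915 and 2209 bp at coding genes. The peaks at ribosomal protein genes thus had medians of width and fold close to those of acetylated promoters in general, and their quartiles of width lay nearer to each other. Width and fold had a Spearman correlation of 0.42 over the 78 genes, as a description, since both come from the same peaks of 1 list.

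**Figure D1:**
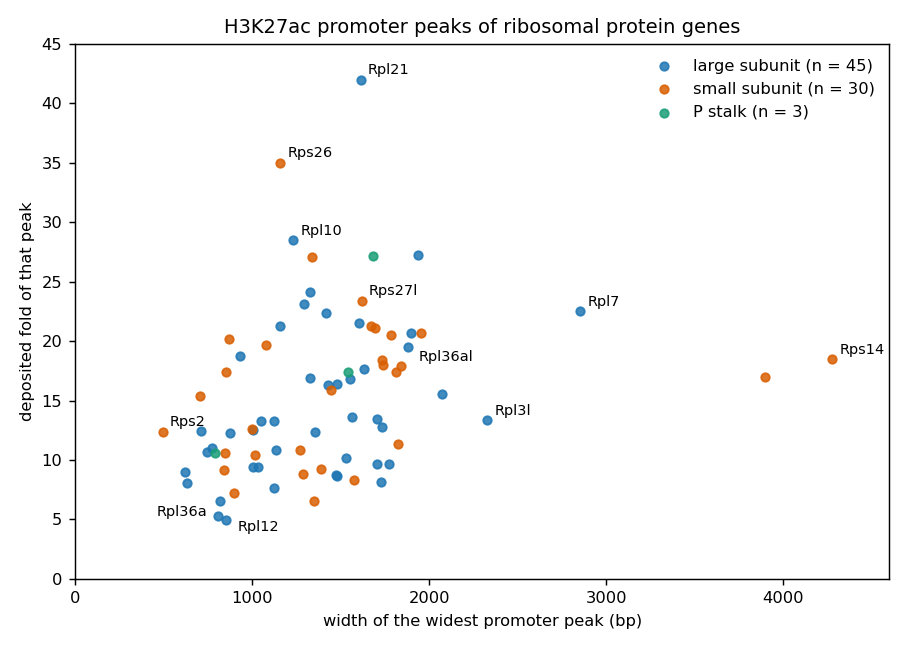
Width (x axis, bp) and deposited fold (y axis) of the widest promoter peak in the replicated list for the 78 ribosomal protein genes that have one; each point is a gene, coloured by large subunit, small subunit or P stalk. Rpl21 stands highest at 42.0 and Rps14 is the widest at 4279 bp, while the subunits intermingle.

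On X, 4 ribosomal protein genes were marked: Rpl10, Rpl36a, Rpl39 and Rps4x. Their folds were 28.5, 5.31, 9.65 and 7.26 in the replicated list. Rps4x, the X-linked form of a small subunit protein, had 898 bp in the replicated list, 537 bp in the replicate 1 list and 1021 bp in the replicate 2 list. The median fold was 8.45 at these 4, against 14.5 at the 74 autosomal ones. Coding genes on X as a whole had a median of 8.88, against 12.7 on autosomes, so the same order was present there. Rpl10, at 28.5, was the only one of the 4 above the autosomal median of the replicated list. That value is of the peak before its start, and the peak after the start had fold 8.24.

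Just downstream of the start of the principal transcript in GENCODE, peak coverage varied little between the ribosomal protein genes. The RefSeq starts used for sequences below differ from that start at some genes, and peak positions relative to them were not computed. A peak lay within 1 kb of the principal start at all 78 genes, against 11834 of the 12450 coding genes with a promoter peak. The shares below thus include coding genes marked only at another start. At +250 bp from the start of the principal transcript, 78 of 78 ribosomal protein genes lay in a peak, against 88% of coding genes with a promoter peak; the counts were 77 in the replicate 1 list (coding genes 84.3%) and 78 in the replicate 2 list (coding genes 89.8%). At +550 bp the shares were 96.2% and 75.6%. Beyond that the order turned: at +1150 bp, 16.7% of ribosomal protein genes were covered, against 34.2% of coding genes, and at -950 bp 14.1%, against 27.4%. The downstream edge of the peak at +250 bp lay at a median of 908.5 bp, with quartiles of 817.5 and 1041 bp, against a median of 895 bp and quartiles of 628 and 1371 bp at coding genes. Median edges were alike, and the spread among ribosomal protein genes was smaller. More sequence was covered in the 1 kb after the start than in the 1 kb before it at 61 of 78 genes (78.2%), against 61.8% of coding genes.

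**Figure D2:**
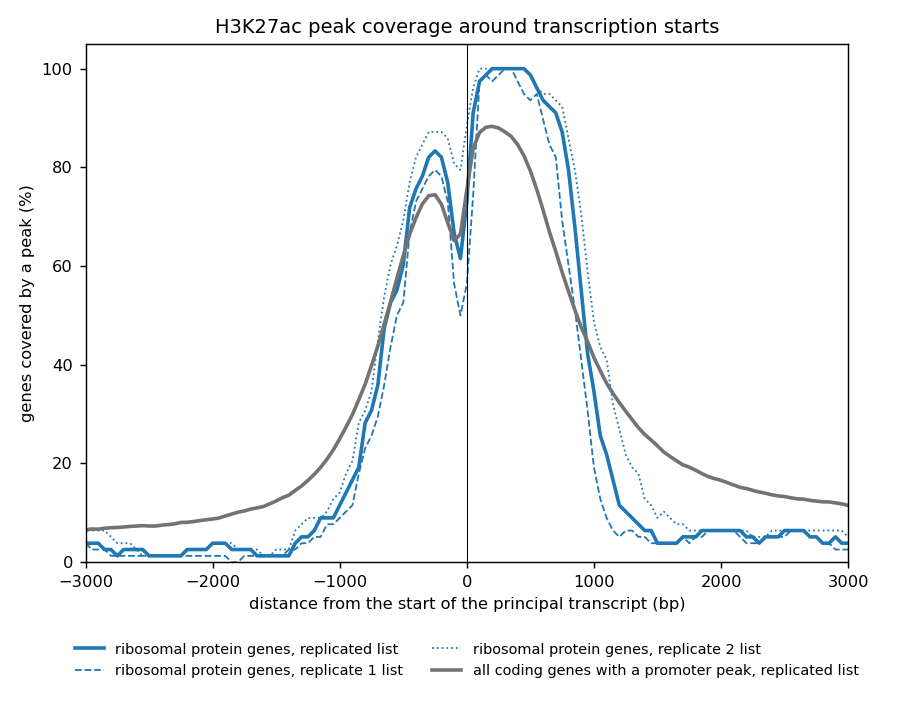
Share of genes covered by a peak (y axis, %) by distance from the start of the principal transcript (x axis, bp), for the 78 ribosomal protein genes in 3 lists (blue) and all coding genes with a promoter peak in the replicated list (grey). The ribosomal protein genes reach 100% at +250 bp, dip to 61.5% at -50 bp, and lie below the coding genes at +1150 bp.

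Upstream of the start there was a dip. At -50 bp, 61.5% of ribosomal protein genes were covered, against 66.5% of coding genes, with 83.3% covered at -250 bp, against 74.4% of coding genes. The principal start lay in a gap with peaks within 1 kb on both sides at 15 of 78 genes (19.2%), against 9.38% of coding genes. This count depended on the replicate. It was 26 in the replicate 1 list, against 13% of coding genes, and 5 in the replicate 2 list, against 5.67%. All 5 gaps of the replicate 2 list, among them those of Rps2, Rps3, Rps12 and Rps21, the last 3 named after their values were seen, were also gaps in the replicate 1 list, and 21 genes had a gap in the replicate 1 list alone. The replicate 2 list had the wider peaks, and the part of peak width in this count was not tested. The start itself was covered at 57 of 78 genes (73.1%), against 75.4% of coding genes; at 44 (56.4%), against 66.2%, in the replicate 1 list; and at 69 (88.5%), against 82.5%, in the replicate 2 list. The 2 lists thus stood on either side of the coding genes. Of the 78 genes, 29 had at least 2 promoter peaks (37.2%), against 41.1% of coding genes with a promoter peak and 23.5% of all coding genes. In the replicate 1 list 37 of the 80 had at least 2, against 24.7% of all coding genes, and in the replicate 2 list 18 did, against 20%. The summit of the widest promoter peak was downstream of the principal start at 48 of 78 genes (61.5%), against 69.1% of coding genes.

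Most ribosomal protein genes are short, with a median length of 3.27 kb against 17.4 kb for coding genes, and the promoter peak reached far into them. Peaks covered a median of 29.8% of the gene body, against 1.98% for all coding genes; among genes with a promoter peak the values were 30.9% and 6.83%. Gene length and covered share move together here, and the share was not tested apart from length. Among genes with a promoter peak, the upper quartile of this share was 40.5% at ribosomal protein genes, against 16.6% at coding genes. The coding genes with at least 50% of the body covered were not counted. At 13 ribosomal protein genes at least 50% of the body was covered. High shares among them, named after their values were seen, were 98.3% at Rps27, a gene of 1130 bp, 91.0% at Rpl41, which encodes a very small and basic protein, and 89.6% at Rpl36. At these genes the mark extended over nearly the whole transcribed unit.

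The surroundings differed far more between genes than the promoters did. From 50 kb before to 50 kb after the gene, peaks covered a median of 6.57 kb, against 4.39 kb at coding genes. Among genes with a promoter peak the medians were 6.64 kb and 7.95 kb, so the order depended on whether unmarked genes were counted. Without the gene's own promoter peaks the medians were 4.80 kb and 3.16 kb over all genes, and 4.83 kb and 5.85 kb over genes with a promoter peak. The windows of long genes are larger, with a median of 103 kb for ribosomal protein genes against 117 kb for coding genes.

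In the replicated list the most acetylated windows were those of Rplp2 (28.4 kb), Rplp0 (28.0 kb), Rps14 (26.4 kb), Rpl29 (26.3 kb) and Rpl23 (26.2 kb). Of the window of Rplp0, its own promoter peaks made up little, since 27.2 kb lay in other peaks. Rplp2 had 25.8 kb in the replicate 1 list, the most there, and 31.7 kb in the replicate 2 list, where Rpl29 had 32.49 kb and Rplp0 32.005 kb. It had 11 other coding genes in its window and 1 distal peak, meaning a peak over 2.5 kb from any start. At the other end, besides Rpl10l and Rpl39l at 0, were Rpl37a with 1.53 kb, Rps4x with 1.59 kb and Rps13 with 1.67 kb. In the replicated list Rpl37a and Rps13 had no peaks in the window other than their own promoter peaks. There Rps13 nevertheless had a promoter peak of 1671 bp at fold 21.2. In the replicate 2 list its window held 2.24 kb, more than its promoter peak of 1738 bp, so other acetylation was called there.

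**Figure D3:**
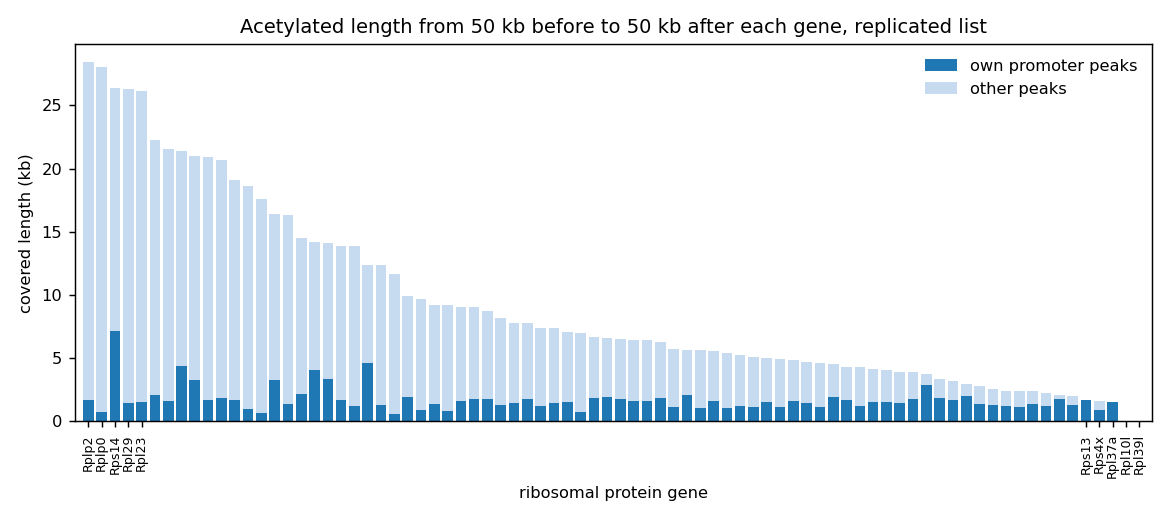
Length covered by peaks (y axis, kb) from 50 kb before to 50 kb after each of the 80 ribosomal protein genes (x axis, ranked, with the 5 at each end named), split into the gene's own promoter peaks (dark) and other peaks (light), replicated list. Own promoter peaks are the smaller portion among the most acetylated windows, where Rplp2 reaches 28.4 kb, and Rpl10l and Rpl39l at the right end are at 0.

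Distal peaks were few. Their median number in the window was 1, and 1 at coding genes too; among genes with a promoter peak it was 1, against 2. No distal peak was present for 34 of the 80 genes (42.5%), against 43.8% of coding genes, and at least 1 for 46 (57.5%), against 56.2%. Rpl27a, named after its value was seen, had 17. The windows of ribosomal protein genes held a median of 4 other coding genes, against 3. Covered length followed this number, with a Spearman correlation of 0.58 over the 80 genes and 0.30 over all coding genes, as a description, since both come from the same windows and the windows of 8 ribosomal protein genes overlap that of another one.

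Another coding gene starts within 1 kb of a ribosomal protein gene's start at 19 of the 80 (23.75%), against 14.6% of coding genes. Among the genes named so far these are Rpl12 with Lrsam1, Rps2 with Rnf151, Rps10 with RPS10-NUDT3, Rpl36al with Mgat2, Rps14 with Ndst1, Rpl3 with Syngr1, Rpl18 with Sphk2 and Rps27 with Rab13. Here acetylation cannot be assigned to either gene. The 19 shared promoters had a median width of 1604 bp and fold of 17.9, against 1293 bp and 13.3 at the 59 unshared ones with a peak. Of the 61 genes with unshared promoters, 59 had a peak, a share of the same size as in the whole set. The share among coding genes with unshared promoters was not computed.

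Sequence around the start was compared where RefSeq promoters matched, at 60 of the 80 genes and 16433 coding genes in all. The RefSeq promoter nearest to the 5′ end of the gene was taken, so its start need not be the principal start. The genes without a match included Rpl17, Rpl21, Rpl23a, Rpl29, Rpl3, Rpl30, Rpl32, Rpl36, Rpl7, Rpl8, Rplp1, Rps14, Rps20, Rps27a and Rps29. A run of at least 8 pyrimidines within 50 bases of the start on the gene's strand was found at 50 of 60 (83.3%), against 34.6% of coding promoters. For runs of at least 10 the shares were 66.7% and 17.4%. Median GC content was 57% in both sets, and the ratio of observed to expected CpG was 0.863, against 0.604. Median GC content was thus alike while pyrimidine runs and CpG were more frequent in ribosomal protein promoters. The coding promoters here and for the motifs below include those of genes without a promoter peak. Promoters with a peak were not compared alone, so these differences cannot be told apart from differences between marked and unmarked promoters.

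The stretch from 50 bases before to 50 bases after the RefSeq start is shown for the 6 matched genes of highest fold and the 3 of lowest fold, with the longest pyrimidine run in capitals. This order is by the fold of the widest promoter peak. The positions on GRCm38.p6 are chr10:128626457-128626556 (minus strand) for Rps26, chrX:74270766-74270865 (plus) for Rpl10, chr11:98026660-98026759 (plus) for Rpl19, chr7:141447601-141447700 (plus) for Rplp2, chr13:90923072-90923171 (plus) for Rps23 and chr9:64173337-64173436 (plus) for Rpl4. For the genes of lowest fold they are chr2:32961662-32961761 (plus) for Rpl12, chrX:134585604-134585703 (plus) for Rpl36a and chr5:121204451-121204550 (plus) for Rpl6.
Rps26: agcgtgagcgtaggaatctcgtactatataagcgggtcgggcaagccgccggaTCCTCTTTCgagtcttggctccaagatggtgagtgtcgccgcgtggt
Rpl10: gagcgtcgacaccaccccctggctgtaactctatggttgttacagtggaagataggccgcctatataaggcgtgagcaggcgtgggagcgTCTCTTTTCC
Rpl19: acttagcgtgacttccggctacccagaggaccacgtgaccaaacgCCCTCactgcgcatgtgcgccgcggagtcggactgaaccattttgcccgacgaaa
Rplp2: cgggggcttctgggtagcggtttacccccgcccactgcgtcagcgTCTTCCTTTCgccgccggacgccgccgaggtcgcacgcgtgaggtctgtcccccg
Rps23: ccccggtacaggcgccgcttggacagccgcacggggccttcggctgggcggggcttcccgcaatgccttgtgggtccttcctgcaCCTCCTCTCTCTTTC
Rpl4: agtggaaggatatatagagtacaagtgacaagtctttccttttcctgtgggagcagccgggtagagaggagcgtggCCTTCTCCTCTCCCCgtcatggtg
Rpl12: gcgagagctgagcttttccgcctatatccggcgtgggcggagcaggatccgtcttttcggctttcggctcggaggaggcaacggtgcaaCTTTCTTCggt
Rpl36a: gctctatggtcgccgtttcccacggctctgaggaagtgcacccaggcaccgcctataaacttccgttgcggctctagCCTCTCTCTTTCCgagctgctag
Rpl6: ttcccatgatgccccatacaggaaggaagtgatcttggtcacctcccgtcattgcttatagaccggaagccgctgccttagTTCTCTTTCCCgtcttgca

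Both ends of the order held such runs. Within the stretch shown they measured 9 bases at Rps26, 10 at Rpl10, 10 at Rplp2, 15 at Rps23, 15 at Rpl4, 8 at Rpl12, 13 at Rpl36a and 11 at Rpl6. Those of Rpl10 and Rps23 reach the last base of the stretch and may be longer. Rpl19 was the exception in the stretch shown, with 5. That stretch surrounds the 5′ end of Rpl19 at 98026710 and does not reach its principal start at 98026924. The first base of the run was at -5 in Rplp2 and at 3 in Rps26, counted from the RefSeq start as 0. It was at 39 in Rpl12 and 40 in Rpl10, so the RefSeq start and the run did not always coincide. The run of Rpl10l had 5 bases, while those of Rpl3l and Rpl39l had 9.

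Of 12 motifs searched on both strands in the 300-base promoters, the ETS motif CCGGAAG was held by 38.3% of the 60 ribosomal protein promoters, against 12.4% of coding promoters. The M1 motif, a palindrome around CGCG, was held by 5 (8.33%), against 0.755%: those of Rpl12, Rps6, Rps19, Rpl26 and Rps28, named after the matches were seen except Rpl12 and Rpl26. The YY1 motif AANATGGCG was held by 8.33%, against 3.47%, and the Sp1 box GGGCGG by 58.3%, against 48.5%. The TATA box TATAAA was held by 8.33%, against 12.9%, and the CCAAT box CCAAT by 31.7%, against 38.9%. The NRF1 motif was held by 1.67%, against 1.39%, and the E-box CACGTG by 8.33%, against 8.12%. From 100 bases before the start on, the order of the TATA box turned, with 8.33%, against 6.96%, as did that of the E-box CACGTG, with 3.33%, against 4.95%.

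Motifs of factors known from heart and muscle had shares below or near those of coding promoters. The MEF2 motif was held by 0 of 60, against 3.41%, the GATA motif AGATAA by 6.67%, against 9.67%, the E-box CAGCTG by 6.67%, against 15.3%, and the TEAD motif ACATTCC by 3.33%, against 3.30%. Rpl3l was among the 4 promoters with the GATA motif and among the 4 with the E-box CAGCTG. Matches are letters in a window, and binding was not measured.

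**Figure D4:**
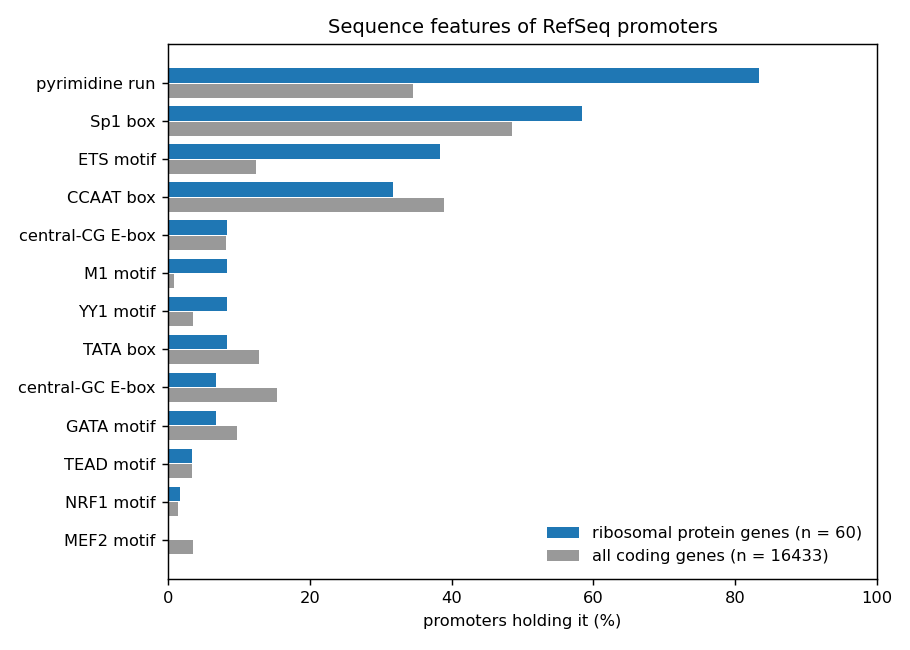
Share of RefSeq promoters (x axis, %) that hold each sequence feature, for 60 ribosomal protein genes (blue) and 16433 coding genes (grey). The pyrimidine run of at least 8 bases is at 83.3% against 34.6% and the ETS motif at 38.3% against 12.4%.

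The other genes of translation, and the proteasome genes listed beside them, were marked at shares of 94.4% to 100%, against 97.5% at the ribosomal protein genes. The 5 ribosomal proteins outside the name pattern all had a promoter peak, with a median width of 800 bp and fold of 10.6. Rpsa, a protein of the small subunit, had 734 bp at fold 10.6. All 78 mitochondrial ribosomal protein genes had one, with a median width of 1171.5 bp and fold of 13.4, against 1373.5 bp and 13.5 at the cytosolic ones. The widest were Mrps18b (5597 bp) and Mrps23 (5550 bp), wider than any cytosolic one. All 8 elongation factor genes had one, with a median of 2039 bp; Eef1a2, the form of muscle and neurons, had 5850 bp. Of 54 initiation factor genes and related binding proteins, 51 had one, all but Eif3j2, Eif4e1b and Eif5a2. All 22 ribosome biogenesis genes had one, as did 18 of 19 genes of growth control, all but Mycl, and 37 of 39 proteasome genes, all but Psma8 and Psmb11. Each of these shares stood above the 57.3% of all coding genes, and the ribosomal proteins did not stand apart from them in this count.

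Replicates agreed in which genes were marked and differed in peak width. The promoter peaks of the replicate 1 and replicate 2 lists overlapped by at least 1 bp at all 78 genes and at 99.8% of the 12042 coding genes with one in both lists, which are 55.4% of all coding genes. They covered at least 50% of each other at 63 of 78 genes (80.8%), against 83.2%. The median width was 1032 bp in the replicate 1 list and 1664 bp in the replicate 2 list, and the peak was wider in the replicate 2 list at 74 of 78 genes, as it was at 11330 of 12042 coding genes. The median ratio of replicate 2 to replicate 1 was 1.40 at ribosomal protein genes, against 1.31. The rank of fold within each list had a Spearman correlation of 0.83 between the replicates over the 78 genes, against 0.88 over 12042 coding genes, as a description over genes of the same lists.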

How the data were processed

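H3K27ac was measured by chromatin immunoprecipitation in 4 libraries of 1 group, and 4 deposited narrowPeak lists on mm10 were used, as derived from the replicates per the labels and deposited text files. The sources used here name no aligner, peak caller or read number, and do not say how reads that match several places were kept. Many processed pseudogenes resemble these genes, and the effect of this was not tested. Depth is therefore unknown. The fold is the authors' deposited ratio for each peak, and the −log10 q is the authors' deposited value; both were used only within a list. Positions and summits are the authors' deposited values.

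Genes and starts came from GENCODE M21; where a symbol occurred more than once, the first by position was kept. The principal transcript was that of the best APPRIS class, then support level, then length. Promoter sequences came from RefSeq (GRCm38.p6), 1 per gene, with the start nearest to the gene's 5′ end. Intervals are exact binomial at 95%. Tools were Python 3.11.15, pandas 2.3.3, numpy 2.4.6, scipy 1.17.1 and matplotlib 3.10.9, and peak assignment was tested on simulated data. Named genes are those without a promoter peak, the 5 at each end of width, fold and window length, paralogs, X-linked genes, and in other lists genes without a promoter peak, up to 6, and the 2 widest. The genes and lists were chosen with earlier results of these data known. Alternatives were single-replicate and pseudoreplicated lists, a −log10 q of at least 5, other windows and starts, and unshared promoters. Proteins were not compared, and values of some genes that the rule names are not reported here.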

Additional observations from a re-analysis of the deposited data

How the results depend on the processing

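Some orders against coding genes turned with the list or the promoter length. Among them were the median fold in the replicate 1 list (10.03, against 10.26) and the start covered in the replicate 2 list (88.5%, against 82.5%). The orders of the TATA box, the E-box CACGTG and the TEAD motif turned in the shorter promoters. The cause was not tested. The count of 78 genes with a promoter peak held in each list, at a −log10 q of at least 5, and with promoter windows of 0.5 and 2.5 kb, where 56.7% and 58.7% of coding genes had one. Leaving out 1 biological replicate gave median widths of 1032 to 1664 bp, folds of 10.03 to 19.1 and covered windows of 5.72 to 7.65 kb. The genes with the start in a gap numbered 5 to 26 (without replicate 1 and without replicate 2, against 15 in the replicated list), and the median width percentile in the list ranged from 68.8 to 75.2, against 75.7. The median covered window was 4.02 kb for 20 kb on either side, 11.9 kb for 100 kb and 4.80 kb without own promoter peaks, against 6.57 kb; these settings count different lengths by construction. Counted with sign, the summit had a median position of 158 bp from the 5′ end, with quartiles of -202.5 and 263.25 bp. From the principal start the median was 126.5 bp, with quartiles of -258 and 206 bp. Summits thus lay on both sides of the start, and these medians are not typical distances. The principal start was an alternative chosen after seeing the data, as were the gap counts, the width percentile and the other run lengths. In promoters from 100 bases before the start, the Sp1 box was at 43.3%, against 40.7% of coding promoters, the GATA motif at 0%, against 3.79%, the muscle E-box at 1.67%, against 8.87%, the TEAD motif at 0%, against 1.45%, the TATA box at 8.33%, against 6.96%, and the E-box CACGTG at 3.33%, against 4.95%. Runs of at least 6 pyrimidines were in 95% of ribosomal protein promoters, against 67.2%. No paired analysis was possible because there is 1 group and the result comes from no test. The comparison of paralogous proteins was not run.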

Other observations

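Pseudogenes named after ribosomal proteins were rarely marked. A peak lay within 1 kb of the start of 9 of 285 (3.16%, exact 95% interval 1.45 to 5.91), against 2.76% of all 12713 annotated pseudogenes. Away from coding starts, with none within 2 kb, the counts were 7 of 273 (2.56%), against 1.94% of 12268. Among the 9 were Rpl10-ps2, Rpl18-ps1 and Rps19-ps10, named after their values were seen.

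Small nucleolar RNAs, which guide the modification of ribosomal RNA, lie inside 28 of the 80 ribosomal protein genes, 53 of them in all. The 28 host genes, all with a promoter peak, had a median width of 1289.5 bp and fold of 16.0, against 1476 bp and 13.4 at the 50 marked genes without one.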
